A study of Mus musculus with 30 samples.

Results

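The SKM-FSK iPSC are 2 lines of induced pluripotent stem cells (iPSC) that the labels trace to mouse embryonic fibroblasts (MEF). Their name is read here as Sox2, Klf4 and Myc with forskolin (FSK) in place of Oct4, the other factor of the usual mix. Gene expression was compared with that of the MEF and of embryonic stem cells (ESC) run in the same set. These samples were chosen by their labels. Of the 30 samples of the series, 4 form set 4: MEF sample 2, SKM-FSK lines 1 and 2 and ESC sample 4. The labels give the MEF as untreated embryonic fibroblasts grown in serum medium, both SKM-FSK lines under the treatment "F", taken as forskolin, and the ESC as untreated cells of the R1 line. The pluripotent cells of the series were kept on feeder layers of growth-arrested MEF, so RNA of feeder fibroblasts could have been present in 3 of the 4 samples. Strain, passage, the length of the forskolin treatment, whether it went on until RNA was taken, and the way in which the factors were introduced are not stated in the labels. Each SKM-FSK line is a single line, so the pair of lines is the only replication here, and MEF and ESC are 1 sample each. Cy5-labelled total RNA was measured on an oligonucleotide array, and the design text gives 3 replicates per sample, of which 1 value per probe was deposited.

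As background, Oct4 (gene Pou5f1), Sox2 and Nanog form the core of the transcription network of pluripotent cells, and Klf4 and Myc assist reprogramming of somatic cells towards it. Forskolin is a plant diterpene that activates most membrane-bound adenylyl cyclases, the enzymes that make cyclic AMP (cAMP). Cyclic AMP releases the catalytic subunits of protein kinase A from their regulatory subunits, and the kinase then phosphorylates CREB-family transcription factors, which bind the cAMP response element of genes such as Fos and Dusp1. Phosphodiesterases break cAMP down and so end the signal.

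In set 4, 19537 features could be tested, of which 16688 were named genes and 2849 were probes with no gene name. Intensities below are the deposited values on a linear scale, given for MEF, line 1, line 2 and ESC, and differences are on the log2 scale, where 1 is a 2-fold difference. The 348 olfactory and vomeronasal receptor genes measured, which these cells have little reason to express, had a median intensity of 131 and a 95th percentile of 579, called the receptor level here. In 47.6% of the features all 4 values were under it, and a difference between such values says little. The highest value in the set was 65490, and 16 to 24 values per sample were above 65000. The test (limma) had 1 residual degree of freedom, because the pair of SKM-FSK lines was the only group with more than 1 sample. The spread between these lines therefore stood for that of the lone MEF and ESC samples, and every standard error (SE) below rests on that assumption. The fit also drew each feature's variance towards a trend with intensity over all features, with 30.7 prior degrees of freedom. Each SE therefore rests mostly on that trend and little on the gene's own spread between the lines. Genes counted as called had an adjusted p (Benjamini-Hochberg over all features) under 0.05 with at least a 2-fold difference, and "rose" and "fell" are used of called genes.

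The labels of all 4 samples held against the pluripotency and fibroblast marker genes. Of 8 measured pluripotency markers, 0 were above the receptor level in MEF and 8 in each line and in ESC. Of 9 measured fibroblast markers, 8 were above it in MEF and 0 in either line or in ESC. The exception in MEF was Col1a1, whose probe read 76.2 there although fibroblasts make this collagen in bulk, so that probe carried no information. The summed intensity of the 9 fibroblast markers was 284525 in MEF, 652 and 741 in lines 1 and 2, and 737 in ESC. Feeder cells share these markers. Markers of macrophages were above the receptor level for 6 of 7 genes in MEF, and for 1 of 7, Cd68, in each pluripotent sample. Of 4 extraembryonic endoderm markers, 2 were above it in MEF, 1 and 2 in lines 1 and 2, and 1 in ESC. Of 3 trophoblast markers 1 was above it, in line 2 alone. Of 4 neural markers 1 was above it in each pluripotent sample. Of 5 endothelial markers 1 was above it in each line and 2 in ESC.

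Against MEF, 7293 features were called in the lines (37.3%), 3930 higher (20.1%) and 3363 lower (17.2%). Against ESC, 1356 were called (6.94%), 667 higher (3.41%) and 689 lower (3.53%). These percentages are the background for the gene groups below. With values under the receptor level set to it, 56.3% of the features became equal in both lines, which changes the variance fit. That setting called 1138 features against MEF and 42 against ESC, and no member of any list below against ESC. Many lost calls kept a large difference. Against MEF that setting called 3 of 29 naive pluripotency genes higher, although Tdgf1, Fbxo15 and Zfp42, for example, still differed by 6.72, 6.77 and 4.06, and it called 20 of 27 fibroblast genes lower. Against ESC the differences of Zfp42, Klf2, Zfp296 and Lefty1 did not change (-1.28, -1.10, -1.13 and 1.62), and 216 features were 2-fold from ESC in both lines, with no test. The list counts below are on the deposited scale. The median difference over all features was 0.12 against MEF and 0.0024 against ESC. Without a test, 34.0% of the features were at least 2-fold from MEF in both lines the same way and 5.09% from ESC (2.4% higher and 2.69% lower). Between the lone ESC and MEF samples 36.9% lay past 2-fold, 19.6% higher in ESC and 17.3% lower. The lines themselves differed by 2-fold or more at 81 features (0.415%). Pearson's correlation of log2 intensity over the features was 0.992 between the lines, 0.972 and 0.969 of lines 1 and 2 with ESC, and 0.762 of each line with MEF. Across features these are descriptions of 4 samples, normalized together, and carry no p.

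Pou5f1, the gene of the factor left out of the mix, was above its MEF level in both lines. Its intensity was 224 in MEF, 2448 and 2188 in lines 1 and 2, and 1741 in ESC. The lines exceeded MEF by 3.37 (SE 0.22, adjusted p = 4.49e-15), a 10.4-fold rise, and the difference from ESC of 0.41 (SE 0.22) was not called. Sox2 read 131 in MEF, 33472 and 28835 in lines 1 and 2, and 27869 in ESC, a rise of 7.89 over MEF. Klf4, which MEF already expressed, read 3697 in MEF, 10221 and 7391 in lines 1 and 2, and 11465 in ESC. Its rise of 1.23 (SE 0.19, adjusted p = 7.18e-07) was the smallest of the 5 reprogramming factors that rose. Whether the Sox2, Klf4 and Myc probes also detect introduced copies was not tested, since probe positions were not used here.

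Myc was the exception among the 6 reprogramming factors. Its intensity was 1844 in MEF, 31.6 and 43.8 in lines 1 and 2, and 238 in ESC, so both lines were below MEF and also below ESC. The difference was -5.63 against MEF (SE 0.25, adjusted p = 2.95e-19) and -2.68 against ESC (SE 0.25, adjusted p = 2.30e-09). The Myc gene lies at chr15:61985341-61990361 (GRCm38.p6), and 1 probe stood for it. All 3 pluripotent values were under the receptor level, and with values under that level set to it the difference from MEF was -1.67 and that from ESC was gone. Nanog and Lin28a, which belong to the same list but not to the mix named here, rose by 7.38 and 3.37. Nanog read 183 in MEF, 29494 and 31423 in lines 1 and 2, and 24232 in ESC.

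**Figure D1:**
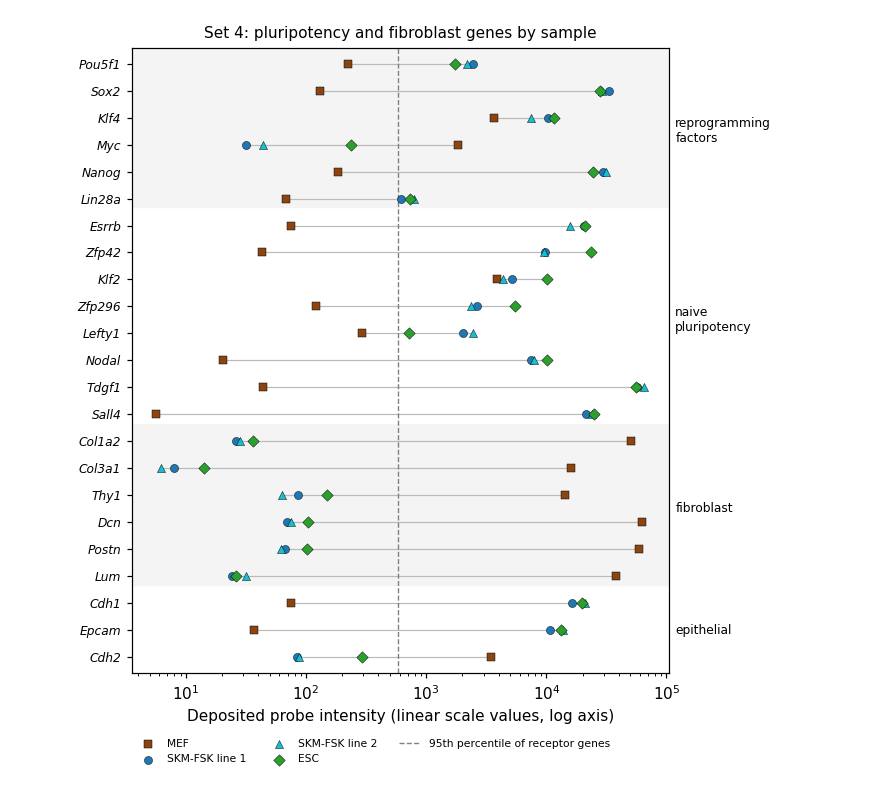
Deposited intensity (log axis) of 23 genes in MEF, SKM-FSK lines 1 and 2 and ESC of set 4, with the receptor level of 579 as a dashed line. Both lines sit on the ESC side for all genes but Klf2, with Myc, Zfp42, Klf2, Zfp296, Lefty1, Cdh2, Thy1 and Col3a1 called against ESC.

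Genes of naive pluripotency, the state of the early epiblast and of mouse ESC, rose nearly as a whole: 28 of the 29 measured were called higher than MEF and 0 lower, with a median difference of 4.37. Sall4, a zinc finger factor of the Oct4 network, read 5.67 in MEF, 21414 and 24079.9 in lines 1 and 2, and 24743 in ESC. The MEF value was near the bottom of the scale, and with values under the receptor level set to it the rise was 5.29 in place of 11.97. Tdgf1 (Cripto, a co-receptor of Nodal) read 43.9 in MEF, 56772 and 65487 in lines 1 and 2, and 55269.5 in ESC, and Fbxo15, an Oct4 and Sox2 target, read 82.8 in MEF, 65487 and 60592 in lines 1 and 2, and 65405 in ESC. For both genes the lines and ESC were at or near the top of the scale, where differences between them can be hidden. Nodal itself, a ligand of the TGF-beta family, rose by 8.56 from 20.3 in MEF to 7451 and 7912, and Esrrb, a nuclear receptor of the naive network, by 7.92. Klf2 was the member not called, with 3908 in MEF, 5147 and 4349 in lines 1 and 2, and 10163 in ESC.

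Of the 14 measured genes linked to primed pluripotency, the later epiblast state, 8 were higher than MEF and 2 lower. Otx2 read 43.9 in MEF, 2688 and 1808 in lines 1 and 2, and 2744 in ESC. Fgf5, the usual marker of the primed epiblast, was lower, with 90.2 in MEF, 27.5 and 26.1 in lines 1 and 2, and 39.2 in ESC, all far under the receptor level. In the LIF and Stat3 pathway, which keeps mouse ESC undifferentiated, 1 of 11 genes rose, the kinase Pim1, and 5 fell. Il6st (gp130, the shared receptor subunit of LIF) read 12873 in MEF, 1059 and 1166 in lines 1 and 2, and 1715 in ESC, and the kinases Jak1 and Jak2 and the phosphatase Ptpn11 fell, with differences of -1.33, -1.55 and -1.19. The Stat3 probe read 2691 in MEF, 84.4 and 55.2 in lines 1 and 2, and 72.7 in ESC, a difference of -5.30. All 3 pluripotent values were under the receptor level and under the receptor median of 131. With values under the receptor level set to it, the difference was -2.22. This was the only Stat3 probe, and such low values do not show that the transcript was absent from the pluripotent cells. Lifr, the ligand-binding subunit, and Socs3, a feedback inhibitor, did not pass the test, with differences of -0.24 and 0.48. Against ESC, 0 of the 11 genes were called, a count that so short a list cannot set apart from the 6.94% of all features.

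Fibroblast genes were lower than MEF almost throughout. Of 27 fibroblast genes 23 fell and 0 rose, with a median of -6.97. Col1a2 and Col3a1, fibrillar collagen chains, fell, with differences of -10.88 and -11.16. Col1a2 read 51093 in MEF, 26.1 and 28.2 in lines 1 and 2, and 36.3 in ESC. Ptn, a growth factor bound to heparan sulfate, read 65405 in MEF, 24.5 and 30.2 in lines 1 and 2, and 47 in ESC, and Thy1, a surface marker by which fibroblasts are often sorted, read 14331 in MEF, 86.3 and 63.4 in lines 1 and 2, and 149 in ESC. With values under the receptor level set to it, the falls of Col1a2, Ptn and Thy1 were still -6.46, -6.82 and -4.63. Vim and Fn1 were not called, with 43045 and 39238 in the lines, 50115 in ESC and 65488 in MEF for Vim, and with 16498 and 13532 in the lines, 16381 in ESC and 27869 in MEF for Fn1. The MEF value of Vim was at the top of the scale, where a larger difference can be hidden. The remaining uncalled genes were Col1a1 and Mmp3. In bulk RNA, fewer fibroblasts and less of these transcripts in each cell cannot be told apart.

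Of 19 measured transcription factors of mesenchyme 16 fell and 0 rose. Osr1, Prrx1, Meox2 and Tbx15, factors of limb, trunk and craniofacial mesenchyme, fell, with differences of -9.01, -8.91, -8.01 and -7.08. Prrx1 read 23572 in MEF, 42.4 and 57 in lines 1 and 2, and 42.5 in ESC. Snai1, a repressor of epithelial genes, did not pass the test and read 1846 in MEF, 2432 and 2789 in lines 1 and 2, and 2200.2 in ESC. Its relative Snai2 fell, with a difference of -5.13. Of 33 measured Hox genes, which record position along the body axis, 20 fell and 3 rose, the posterior Hoxb13, Hoxc13 and Hoxd13. Hoxc6 read 8532 in MEF, 242 and 190.4 in lines 1 and 2, and 251 in ESC. Hoxa7 read 2808 in MEF, 89.3 and 88.3 in lines 1 and 2, and 270.3 in ESC. Among the risers Hoxd13 read 746 and 1027 in the lines, 619 in ESC and 392 in MEF, and the other two stayed under the receptor level in both lines.

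Epithelial genes moved the opposite way: 19 of 25 rose and 1 fell. Cdh1 (E-cadherin) read 74.8 in MEF, 16381 and 20933 in lines 1 and 2, and 19890.5 in ESC, and Epcam, a cell adhesion molecule of epithelia and ESC, read 37 in MEF, 10634 and 13631 in lines 1 and 2, and 13195 in ESC. The gene that fell was Cdh2 (N-cadherin), the mesenchymal partner in the cadherin switch, with 3468 in MEF, 84.5 and 86.5 in lines 1 and 2, and 292 in ESC. Spint1 and St14, a membrane protease inhibitor and its protease, rose by 7.41 and 6.95. Krt7 and Esrp2 were among the 5 genes not called, with differences of 0.50 and 0.49.

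The largest changes among genes above the receptor level lay partly outside these lists. Trap1a, an X-linked tumour rejection antigen gene, read 0.875 in MEF, 8006 and 6593 in lines 1 and 2, and 5393 in ESC. Rbmxl2, a testis RNA-binding protein gene, read 3.88 in MEF, 5006 and 4221 in lines 1 and 2, and 2992 in ESC. 1700013H16Rik read 3.67 in MEF, 4589.8 and 7679 in lines 1 and 2, and 12287 in ESC. Calcoco2, an autophagy receptor, rose from 13.9 to 9492 and 8423, and Fut9, the fucosyltransferase that makes the SSEA-1 antigen of ESC, from 0.75 to 597 and 394. These MEF values were near the bottom of the scale, and with values under the receptor level set to it the rises of Trap1a, Rbmxl2, 1700013H16Rik and Calcoco2 were 3.65, 2.99, 3.36 and 3.95. The largest falls were matrix genes in the main: Aspn (asporin) read 21246 in MEF, 10.8 and 9.83 in lines 1 and 2, and 8.75 in ESC, and the differences of Col8a1, Col12a1 and Ccn3 were -10.46, -9.93 and -9.93. Prss23, a serine protease, had a difference of -10.08.

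Contractile genes and genes of TGF-beta signalling fell at 13 of 16 and rose at 1, the inhibitor Smad7. The receptor Tgfbr2 read 34546 in MEF, 346 and 223 in lines 1 and 2, and 364 in ESC, a difference of -6.96 (SE 0.24, adjusted p = 2.69e-22). Acta2 (smooth muscle actin) read 43452 in MEF, 413 and 426 in lines 1 and 2, and 96 in ESC, and Myl9 (a myosin light chain) read 28628 in MEF, 1600.5 and 981 in lines 1 and 2, and 161 in ESC. Interferon-response genes fell at 18 of 20, with a median of -3.34. Against ESC 3 of the 20 were called higher and 1 lower, and 2 and 1 were 2-fold in both lines, with no test. Isg15, a ubiquitin-like protein, read 11944 in MEF, 12.1 and 6.25 in lines 1 and 2, and 8.96 in ESC, and B2m, the light chain of class I histocompatibility molecules, read 39238 in MEF, 2354 and 1906 in lines 1 and 2, and 1752 in ESC. Isg20 was called higher, with 579 in MEF, 1352 and 1656 in lines 1 and 2, and 554 in ESC, but it had 3 probes, and with their mean in place of the brightest probe the difference was -0.23 and not called. Macrophage genes fell at 9 of 13, among them C1qa with 3749 in MEF, 78.8 and 72.7 in lines 1 and 2, and 97.6 in ESC. Laptm5, a lysosomal membrane protein, rose, with 3816 in MEF, 18177 and 13631 in lines 1 and 2, and 17129 in ESC.

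Chromatin regulators rose in large part. Of 19 polycomb and H3K9 genes 12 rose and 0 fell, and Ezh2, Eed and Suz12, the core subunits of polycomb repressive complex 2, rose by 2.79, 2.24 and 2.91. Its accessory subunits Mtf2 and Jarid2 rose by 3.95 and 3.53. Cbx7, the polycomb chromodomain protein of ESC, read 271 in MEF, 9517 and 8362 in lines 1 and 2, and 7912 in ESC. Of 14 genes of DNA methylation 7 rose and 2 fell. Dnmt3l, the cofactor of de novo methylation, read 52 in MEF, 3728 and 3221 in lines 1 and 2, and 1746 in ESC, and Tet1, an oxidase of methylated cytosine, read 432 in MEF, 19619 and 17484 in lines 1 and 2, and 12491 in ESC. Dnmt3a and Mbd2 fell, with differences of -1.79 and -1.76. None of the 33 genes on these lists was called against ESC, where 6.94% of all features were.

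Cell cycle genes rose at 21 of 26. Mcm3 and Mcm7, subunits of the replicative helicase, rose by 3.00 and 2.99 and Bub1, a mitotic checkpoint kinase, by 3.78. The D cyclins did not follow: Ccnd2 read 11536 in MEF, 519 and 382 in lines 1 and 2, and 309 in ESC and Ccnd1 read 10798 in MEF, 2383 and 2965 in lines 1 and 2, and 6563 in ESC, both called lower, and Ccnd3 differed by -0.033, not called. Of 26 metabolic genes typical of pluripotent cells 15 rose and 0 fell. The glucose transporter Slc2a3 read 358 in MEF, 48975 and 52728 in lines 1 and 2, and 46797 in ESC, hexokinase Hk2 read 1694 in MEF, 43452 and 45915 in lines 1 and 2, and 29599 in ESC, and uridine phosphorylase Upp1 read 54.8 in MEF, 33263 and 35164 in lines 1 and 2, and 30882 in ESC. Of the 10 housekeeping genes 5 rose and 1, Gusb, fell. Tfrc, the transferrin receptor, was the largest with a rise of 4.97, so these genes gave no flat reference between fibroblasts and pluripotent cells.

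**Figure D2:**
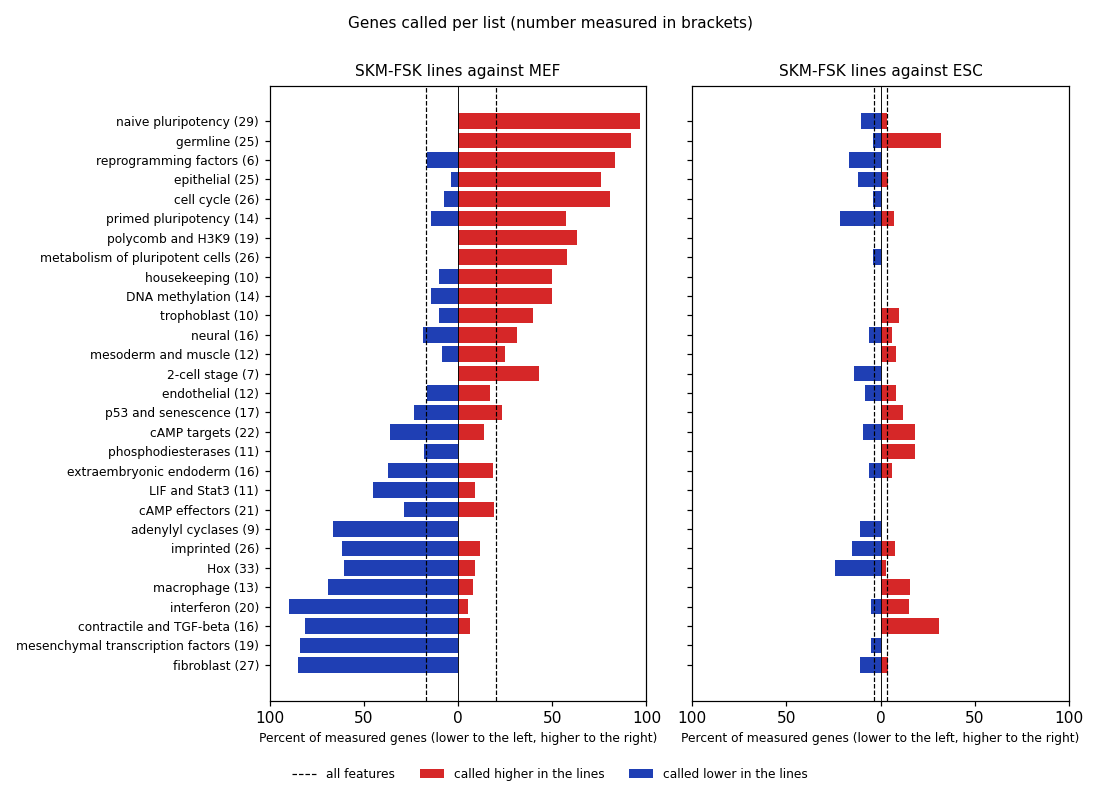
Percentage of the measured genes of 29 lists called higher (right) or lower (left) in the SKM-FSK lines against MEF and against ESC, with the same percentages over all 19537 features as dashed lines (20.1% and 17.2% against MEF, 3.41% and 3.53% against ESC). Against ESC the germline list reaches 8 of 25 genes higher and the contractile list 5 of 16.

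The pathway that forskolin acts on was next described from the enzyme to the targets. Adenylyl cyclases were not higher in the lines: of 9 measured, 6 were lower than MEF and 0 higher. Adcy6 read 4214 in MEF, 213 and 170.1 in lines 1 and 2, and 313 in ESC, a difference of -4.47 (SE 0.23, adjusted p = 1.34e-17), and Adcy3 read 5038 in MEF, 1849.5 and 2339.5 in lines 1 and 2, and 1937 in ESC, a difference of -1.28. Adcy3 was the sole cyclase above the receptor level in the lines. Adcy2 read 1648 in MEF, 179 and 134 in lines 1 and 2, and 550.4 in ESC and was also lower than ESC, with a difference of -1.83 (SE 0.24, adjusted p = 9.98e-07), with all 3 pluripotent values under the receptor level. The falls of Adcy1, Adcy4 and Adcy7 lay wholly under that level. Adcy5, Adcy9 and Adcy10 were not called, with differences of -0.90, 0.21 and -0.51.

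Of the 6 measured kinase subunits 3 were called against MEF, all lower. The catalytic subunits Prkaca and Prkacb differed from MEF by -0.64 (SE 0.15) and -0.93 (SE 0.18), short of 2-fold. Prkaca read 26033 in MEF, 17584 and 15826 in lines 1 and 2, and 17182 in ESC. Of the regulatory subunits Prkar1a, Prkar1b and Prkar2b fell, with differences of -1.25, -2.33 and -1.68, and Prkar2a, at 0.80, was not called. Prkar2b read 7362 in MEF, 2048 and 2572 in lines 1 and 2, and 1554 in ESC. Pkia, a peptide inhibitor of the catalytic subunit, read 1986 in MEF, 309 and 338 in lines 1 and 2, and 278 in ESC. The CREB coactivators Crtc1 and Crtc3 fell, with differences of -1.04 and -2.64, and Crtc2 differed by 0.30, not called. Crem, the CREB relative whose product includes repressor isoforms, rose by 1.58, with 219 in MEF, 800.5 and 539 in lines 1 and 2, and 705 in ESC, though its 4 probes ran from 0.30 to 1.58. The anchoring proteins Akap1, Akap12 and Akap8 rose by 2.16, 1.34 and 1.35. Crem is also on the target list below. In all, 4 of 21 effectors were higher and 6 lower than MEF. Against ESC 0 of the 21 were called, and their median difference was 0.17. The list is too short to set that count apart from the 6.94% of all features.

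Among 11 phosphodiesterases, 0 were higher than MEF and 2, Pde1a and Pde3a, were lower (18.2%, near the 17.2% of all features). Pde4d, a well-known enzyme of cAMP breakdown, read 642 in MEF, 497 and 456 in lines 1 and 2, and 501 in ESC. Against ESC, Pde1c and Pde10a were called higher by 1.03 and 1.09, with 49.1 and 51.9 in ESC and between 94.5 and 123 in the lines, far under the receptor level. Pde4b was not called against ESC (-0.26) with its brighter probe, and was called with the mean of its 2 probes (1.10). Against MEF these probes gave -7.15 and -0.016, and with their mean Pde4b was called lower, making 3 phosphodiesterases. Against ESC no phosphodiesterase was called with an offset of 43.7, the 5th percentile of all values, added to every value.

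Genes known to answer cAMP did not move one way. Of 22 measured, 3 were higher than MEF and 8 lower, with a median of 0.037. Egr1, an immediate early gene, fell the most, with 22788 in MEF, 83.4 and 104 in lines 1 and 2, and 180.2 in ESC. Penk, which encodes the enkephalin precursor, read 7677 in MEF, 189.8 and 188 in lines 1 and 2, and 248 in ESC, and Junb read 2810.4 in MEF, 483 and 339 in lines 1 and 2, and 852 in ESC. Dusp1, a phosphatase of MAP kinases, rose by 1.29 (SE 0.20, adjusted p = 9.36e-07) with 1866 in MEF, 5004 and 4153 in lines 1 and 2, and 4108 in ESC, so the lines were close to ESC. Vgf, which encodes a neuropeptide precursor, rose by 1.28 but stayed under the receptor level, with 156 in MEF, 335 and 428 in lines 1 and 2, and 184 in ESC. Nr4a3, Fosb, Sst and Btg2 were under the receptor level in all 4 samples.

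Against ESC, 4 of the 22 cAMP targets were called higher and 2 lower. With the offset of 43.7 added, 2 were higher and 0 lower, and the calls of Sik1 and Junb were lost. Where both lines had to be 2-fold, with no test, 2 were higher and 1 lower. Fos, the AP-1 subunit, read 1328 and 974 in the lines, 469.6 in ESC and 1028 in MEF, a difference of 1.28 (SE 0.23, adjusted p = 1.49e-04). Sik1, a kinase that restrains CRTC coactivators, read 782 and 639 in the lines, 337 in ESC and 475 in MEF, a difference of 1.07. Both lines were above ESC for both genes, and neither gene was called against MEF. The remaining 2, Pck1 and Vgf, lay under the receptor level in every sample, as did Cga, one of the genes called lower. Junb was the other gene lower than ESC, with a difference of -1.08. Whether forskolin was still present in the cultures is not stated, so these values are not a measure of its action. The full cAMP response element TGACGTCA was searched on both strands in the 250 bases before each RefSeq gene start (GRCm38.p6). It was found in 3 of the 15 target genes with a promoter in the table, Btg2, Dusp1 and Sst, and in 2.54% of all 13192 measured genes with a promoter. Of these 3 genes Dusp1 alone was called against MEF, and its promoter (chr17:26508473-26508722, minus strand) is shown with the element in capitals, 143 bases before the start. A CACGTG nearby, the E-box described below, is left in lower case.
Dusp1: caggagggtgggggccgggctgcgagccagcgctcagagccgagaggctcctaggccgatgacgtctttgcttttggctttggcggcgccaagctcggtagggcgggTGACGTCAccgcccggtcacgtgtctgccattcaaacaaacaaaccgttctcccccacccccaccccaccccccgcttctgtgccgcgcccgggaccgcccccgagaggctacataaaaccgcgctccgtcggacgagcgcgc

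**Figure D3:**
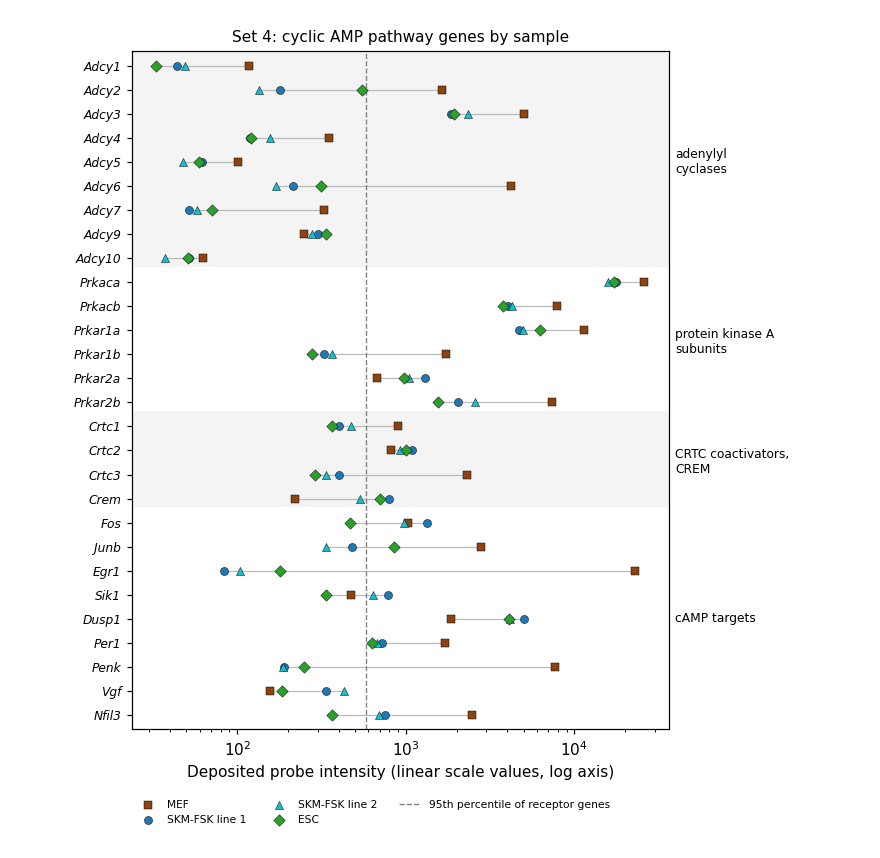
Deposited intensity (log axis) of 28 genes of the cAMP pathway in the 4 samples of set 4, from adenylyl cyclases to target genes, with the receptor level of 579 as a dashed line. Of the cyclases Adcy2 alone was called against ESC and of the kinase subunits none, Egr1 and Penk are far above both in MEF, and for Fos and Sik1 both lines exceed ESC.

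Germline genes were the list with the most members called higher than ESC. Against MEF 23 of 25 measured genes were higher and 0 lower. Against ESC 8 were called higher and 1 lower, with a median difference of 0.83, where 3.41% of all features were higher and the median was 0.0024. Both lines were above ESC for 18 of the 25 genes, as for 41.2% of all features. Ddx4 (Vasa), an RNA helicase of germ cells, read 611 in MEF, 1964 and 2315 in lines 1 and 2, and 539.6 in ESC, so it was above its MEF level only in the lines. Germline calls against ESC numbered 7 higher and 1 lower where both lines had to be 2-fold, with no test, and 6 and 1 with an offset of 43.7 added to every value. Ddx4 exceeded ESC by 1.98 (SE 0.22, adjusted p = 6.24e-08). Hormad1, a protein of the meiotic chromosome axis, read 62.3 in MEF, 1348 and 1364 in lines 1 and 2, and 428 in ESC, a difference from ESC of 1.66 (SE 0.23, adjusted p = 2.21e-06). Piwil2, a partner of germline small RNAs, read 65.7 in MEF, 1878 and 1588 in lines 1 and 2, and 745 in ESC, and Mael (Maelstrom), of the same pathway, read 45.4 in MEF, 1327 and 1901 in lines 1 and 2, and 753 in ESC.

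The X-linked homeobox genes Rhox6 and Rhox9 exceeded ESC by 2.14 and 1.78. Rhox9 read 139 in MEF, 1532 and 1197 in lines 1 and 2, and 394 in ESC, and Rhox6 read 88.2 in MEF, 792 and 415 in lines 1 and 2, and 130 in ESC, with line 2 under the receptor level. Their neighbour Rhox5 read 83.4 in MEF, 35262 and 26778 in lines 1 and 2, and 17343 in ESC and was not called at 0.83. The Rhox genes are paralogues, and whether a probe of 1 also binds another was not tested. Sycp3 and Brdt, a synaptonemal complex protein and a bromodomain protein of spermatocytes, were called higher as well but stayed under the receptor level in every sample, with 112 at most for Sycp3 and 424 for Brdt. The 2 probes of Brdt disagreed, at -0.26 and 1.09 against ESC. Stra8, the retinoic acid target that licenses meiosis, read 22.2 in MEF, 4349 and 10230.3 in lines 1 and 2, and 3576 in ESC and was not called against ESC, and line 2 was above line 1 by 1.23. Dazl, an RNA-binding protein of germ cells, read 54.1 in MEF, 11682 and 17264 in lines 1 and 2, and 9048 in ESC and was not called against ESC either. Asz1, Prdm1, Dmrtb1, Kit and Tdrd9 were lower than ESC in both lines without being called. Zfp42 (Rex1), which is on this list and on the naive list, was the gene called lower.

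Many germline promoters carry the E-box CACGTG, the hexamer bound by Max together with Mga or Myc, and in ESC a polycomb complex with Mga, Max and Pcgf6 is known to silence such genes. In the 250 bases before the gene start, CACGTG (the same on both strands) was found in 10 of the 21 germline genes with a promoter in the RefSeq table, and in 8.91% of all 13192 measured genes with one. Of the 8 genes called higher than ESC, Ddx4, Mael, Sycp3, Hormad1 and Brdt carried it. The remaining carriers of the 10 were not called higher, and Tdrd9, among them, was lower than ESC in both lines. The promoters of 4 of these are shown because these genes were called higher than ESC, with the E-box in capitals, in GRCm38.p6 and in the direction of the gene. They are Hormad1 (chr3:95559427-95559676, plus strand), Mael (chr1:166238745-166238994, minus strand), Sycp3 (chr10:88459337-88459586, plus strand) and Brdt (chr5:107330944-107331193, plus strand).
Hormad1: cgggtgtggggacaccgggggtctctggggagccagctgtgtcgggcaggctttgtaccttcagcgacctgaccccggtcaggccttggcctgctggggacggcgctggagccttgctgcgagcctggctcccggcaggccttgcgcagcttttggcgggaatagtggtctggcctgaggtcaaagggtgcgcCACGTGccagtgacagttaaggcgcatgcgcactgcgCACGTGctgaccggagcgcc
Mael: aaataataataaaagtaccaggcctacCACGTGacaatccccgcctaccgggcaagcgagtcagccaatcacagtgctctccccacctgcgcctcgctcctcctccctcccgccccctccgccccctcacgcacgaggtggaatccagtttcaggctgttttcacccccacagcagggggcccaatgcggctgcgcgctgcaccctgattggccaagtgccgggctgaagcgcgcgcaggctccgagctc
Sycp3: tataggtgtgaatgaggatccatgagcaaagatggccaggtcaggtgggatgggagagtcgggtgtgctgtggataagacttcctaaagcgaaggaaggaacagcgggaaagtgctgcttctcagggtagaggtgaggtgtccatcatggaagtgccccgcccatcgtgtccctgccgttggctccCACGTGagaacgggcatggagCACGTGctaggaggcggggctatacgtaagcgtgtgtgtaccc
Brdt: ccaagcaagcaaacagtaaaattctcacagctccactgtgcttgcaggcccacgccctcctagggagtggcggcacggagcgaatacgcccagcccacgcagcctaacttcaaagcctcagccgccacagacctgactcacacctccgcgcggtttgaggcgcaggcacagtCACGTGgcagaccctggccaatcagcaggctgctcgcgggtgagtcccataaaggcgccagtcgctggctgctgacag
Hormad1 has 2 matches, which begin 20 and 57 bases before the start, and Sycp3 has 2, at 43 and 64 bases. The single matches of Brdt and Mael begin 78 and 223 bases before it. A match is a description of these letters and no evidence of binding. Pcgf6 itself read 1615 in MEF, 10074 and 11251 in lines 1 and 2, and 11119 in ESC and was not called against ESC (-0.063, SE 0.18).

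**Figure D4:**
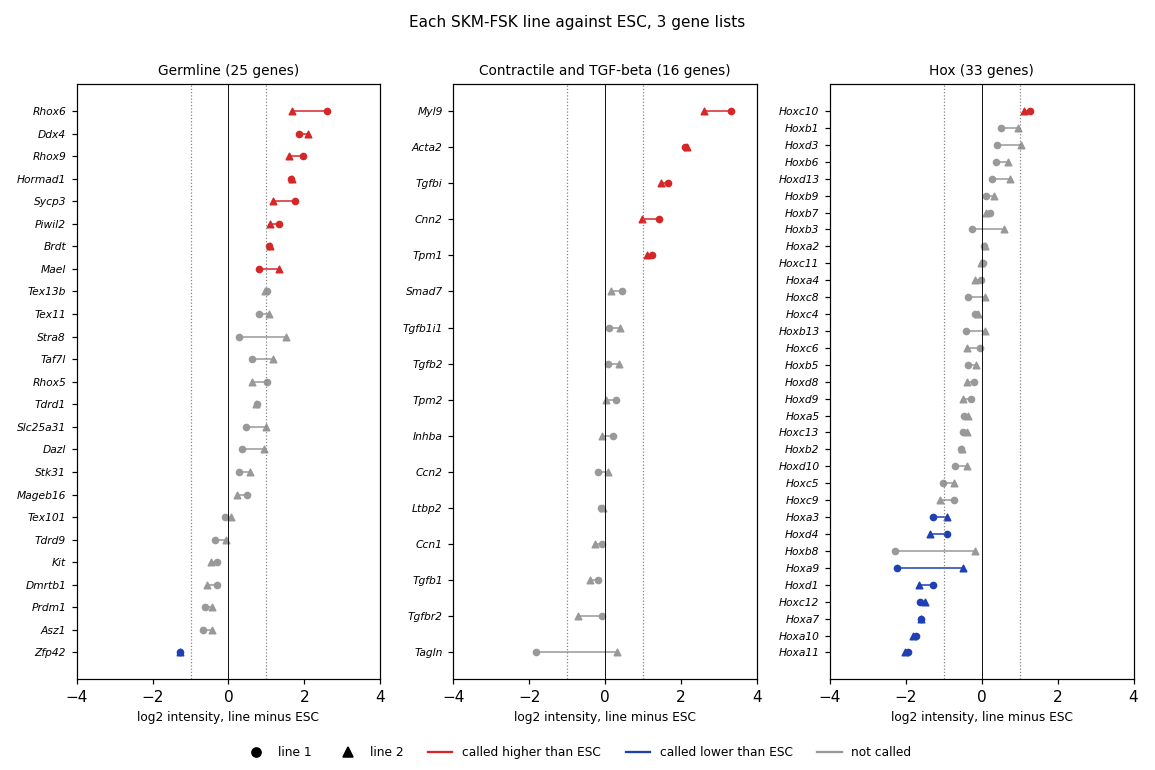
Log2 difference of SKM-FSK line 1 (circles) and line 2 (triangles) from ESC for the germline, contractile and TGF-beta and Hox lists, coloured where called, with 2-fold marked by dotted lines. Germline genes lie mostly to the right (8 called higher and 1 lower of 25). Of 16 contractile genes 5 were called higher, and of 33 Hox genes 8 were called lower and 1 higher.

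On the contractile list 5 of 16 genes were called higher than ESC and 0 lower, with a median difference of 0.19. With the mean of each gene's probes 4 were higher. Myl9 read 1600.5 and 981 in the lines, 161 in ESC and 28628 in MEF, a difference from ESC of 2.96 (SE 0.24, adjusted p = 6.27e-11). Acta2 read 413 and 426 in the lines, 96 in ESC and 43452 in MEF, all pluripotent values being under the receptor level, and differed by 2.13. Its 2 probes gave 0.30 and 2.13 against ESC. Tgfbi, a secreted matrix protein, read 1356 and 1187 in the lines, 429 in ESC and 18746 in MEF. Cnn2 (a calponin) read 2938 and 2123 in the lines, 1091 in ESC and 26778 in MEF. Tpm1 (a tropomyosin) read 4622 and 4193 in the lines, 1959 in ESC and 34401 in MEF. For these 3 genes and Myl9 both lines were above the receptor level. The 3 probes of Tpm1 ran from 0.51 to 1.17 against ESC and from -2.97 to 1.98 against MEF. Actc1 (cardiac actin), on the muscle list, was also higher than ESC, by 2.41, with 491 and 319.8 in the lines, 74.8 in ESC and 104 in MEF. The 5 genes called on the contractile list were higher in MEF than in either line, and Actc1 was not. The 9 fibroblast markers summed to 652 and 741 in the lines against 737 in ESC, the median difference of the 27 fibroblast genes from ESC being -0.39. S100a4 was the fibroblast gene called higher, with 236 and 326 in the lines, 124 in ESC and 24952 in MEF. Col3a1, Thy1 and Mmp2 were called lower at the edge of 2-fold, and with the offset of 43.7 no fibroblast gene was called against ESC, nor was any 2-fold in both lines.

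Both lines were below ESC at 21 of 33 Hox genes and above it at 8, and 8 were called lower and 1, Hoxc10, higher. All 9 were under the receptor level in the lines and in ESC, and with an offset of 43.7 added to every value 3 were lower and 0 higher. Hoxa11, Hoxa10 and Hoxa7 differed by -1.98, -1.78 and -1.61. Hoxa10 read 70.7 and 66.6 in the lines, 236 in ESC and 923 in MEF.

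Imprinted genes, expressed from 1 parental copy, had fallen from MEF at 16 of 26 and risen at 3. Against ESC 2 were higher and 4 lower. H19, a noncoding RNA of the maternal copy (chr7:142575530-142578146), read 65474 in MEF, 1744 and 2515 in lines 1 and 2, and 601 in ESC, and both lines exceeded ESC by 1.80 on average (SE 0.21, adjusted p = 1.29e-07). Its neighbour Igf2 (chr7:142650768-142666816), a growth factor of the paternal copy, read 65488 in MEF, 564 and 572 in lines 1 and 2, and 271 in ESC, a difference from ESC of 1.07 (SE 0.21, adjusted p = 4.62e-04). With values under the receptor level set to it, the difference of H19 was still 1.80, though no longer called, and that of Igf2 was 0. Plagl1, a zinc finger factor that regulates other imprinted genes, was lower than ESC, with 10593 and 8632 in the lines, 29756 in ESC and 45319 in MEF, and so was Grb10, an adaptor of insulin signalling, with 1873 and 1485 in the lines, 3593 in ESC and 53258 in MEF. Peg12 and Zim1 were called lower at values under the receptor level. At the Dlk1-Meg3 locus Meg3 read 313 in MEF, 195 and 192 in lines 1 and 2, and 285 in ESC, under the receptor level in every sample, and Dlk1 read 23963 in MEF, 145 and 145 in lines 1 and 2, and 262 in ESC, with 2 probes that ran from -7.37 to -2.23 against MEF.

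Within the naive list, 1 gene was higher than ESC and 3 were lower, where 3.41% and 3.53% of all features were. Lefty1, an inhibitor of Nodal, read 2020.2 and 2452 in the lines, 724 in ESC and 291 in MEF, a difference of 1.62 (SE 0.22, adjusted p = 2.81e-06), while Lefty2 read 4517 and 4640.4 in the lines, 4555 in ESC and 100.4 in MEF and was not called. Zfp42 read 9709.8 and 9555 in the lines, 23348 in ESC and 42.5 in MEF, a difference of -1.28 (SE 0.20, adjusted p = 1.59e-05). Klf2 and Zfp296, a Kruppel-like factor and a zinc finger factor, were lower, with differences of -1.10 and -1.13. Klf2 read 5147 and 4349 in the lines, 10163 in ESC and 3908 in MEF and Zfp296 read 2634 and 2357 in the lines, 5466 in ESC and 121 in MEF. Each of these 4 genes had both lines on the same side of ESC. Over the list both lines were below ESC at 20 of 29 genes and above it at 4, against 40.1% and 41.2% of all features, and the median difference was -0.31. The octamer ATTTGCAT, which Oct4 and other POU factors bind, was searched on both strands in the same 250 bases. It was found in 2 of 17 naive genes with a promoter, Zfp296 and Zfp42, and in 1.75% of all measured genes with one. It was also found in 2 of 21 germline genes, Zfp42 again among them, and in 1 of 18 fibroblast genes. A match is no evidence of binding, and any part of Oct4 in these differences was not tested. The promoter of Zfp42 (chr8:43307010-43307259, minus strand) is shown with the octamer in capitals, 186 bases before the start.
Zfp42: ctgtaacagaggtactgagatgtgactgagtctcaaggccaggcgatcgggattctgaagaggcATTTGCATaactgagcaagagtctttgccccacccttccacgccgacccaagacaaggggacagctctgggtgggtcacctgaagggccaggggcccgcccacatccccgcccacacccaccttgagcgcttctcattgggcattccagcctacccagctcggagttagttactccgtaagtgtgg

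Single genes far from ESC were also named by size of difference, among those above the receptor level in at least 1 of the 4 samples. The 10 highest over ESC, with both lines 2-fold the same way, included Rgcc, a cell cycle regulator induced by complement, with 4856 and 2539.6 in the lines, 240.4 in ESC and 3106 in MEF, Pclaf, a clamp-associated replication factor, with 2096 and 2175 in the lines, 184 in ESC and 2196 in MEF, and Nod1, a sensor of bacterial peptides, with 1294 and 1584 in the lines, 138 in ESC and 1747 in MEF. Ddias, a regulator of cell death, read 1492 and 1655 in the lines, 149 in ESC and 360.3 in MEF. Ints11, the nuclease of the Integrator complex, read 754 and 569.7 in the lines, 62.3 in ESC and 232 in MEF. Rpl29, a ribosomal protein gene with many processed copies in the genome, read 3426 and 4322 in the lines, 276 in ESC and 1311 in MEF. In 2 cases the ESC value was near the bottom of the scale. Ndufaf1 was 0.25 in ESC against 2338 to 3363 in the other samples, and Dpp7 was 12.7 against 1980.4 to 4271. Their differences of 13.68 and 7.35 rest on that 1 ESC value each. For Rgcc, Pclaf, Nod1 and Rpl29 too, ESC was the only sample under the receptor level. Of these, Rpl29 alone was called against MEF. Ankdd1b rested on line 2 (856, against 12.8 in line 1), and Il33, eligible through MEF, on values of 7.33 or less in all pluripotent samples.

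The 10 lowest against ESC were all called. Pramel6, a gene of the early embryo and naive ESC, read 102 and 106 in the lines, 3919.8 in ESC and 51 in MEF, a difference of -5.24 (SE 0.23, adjusted p = 2.33e-17). Bhmt (betaine-homocysteine methyltransferase) read 228 and 159 in the lines, 2206 in ESC and 69.8 in MEF. Fbp2 (muscle fructose bisphosphatase) read 241 and 166 in the lines, 1978 in ESC and 73.8 in MEF. Nefm (a neurofilament), Ntn1 (netrin), Nxf3 (an X-linked RNA export factor) and St8sia6 (a sialyltransferase) differed by -4.35, -3.91, -3.86 and -3.29. Nxf3 read 68.6 and 87.2 in the lines, 1119 in ESC and 27.9 in MEF. C130073F10Rik, of no named function, read 619.5 and 420.3 in the lines, 10492 in ESC and 124 in MEF. Adgrg6 differed by -3.78, with ESC at 292, so that only MEF was above the receptor level. Iqcg read 109.9 and 136 in the lines, 16381 in ESC and 6051 in MEF, but its 2 probes gave -7.07 and 0.22 against ESC. For each of these 10 genes the lines lay within 2-fold of each other while ESC lay above both.

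Line 2 was higher than line 1 at 43 features (0.22%) and lower at 38 (0.195%) by 2-fold or more, and 25 of the 81 had at least 1 of the 4 samples above the receptor level. Line 1 was the higher for Ffar3, a receptor of short-chain fatty acids, with 604 against 208, and for 1110038F14Rik, with 1267 against 5.42. It was also higher for Ppp1r14d (555 against 211), Tns1 (297 against 116) and Adam19 (922 against 420.3), of which Ppp1r14d and Tns1 were under the receptor level in both lines. Line 2 was the higher for Sez6l2, a neuronal membrane protein, with 1926 against 688, and ESC read 570.3. For Srek1, a splicing factor, line 2 read 3346 and line 1 8.75, with 1264 in MEF and 2429 in ESC. The other named genes on the line 2 side (Ankdd1b aside, Pcdhb17, Tmem204, Tagln, Hoxa9 and Slc2a10) were under the receptor level in both lines. The differences between the lines have 1 sample on each side and no test.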

How the data were processed

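Expression was measured on a 1-colour whole-genome mouse array (Phalanx Mouse OneArray v2, per the series' design text). The deposited values are probe intensities on a linear scale, 1 per sample and probe. The authors normalized 5 sample sets separately, per that text, and set 4 was analysed alone. How the 3 replicates of a sample became 1 value, and what scanner and background correction were used, is not given in the sources used here. Whether those replicates were separate cultures is not stated. Array number limits the precision, since SKM-FSK has 2 samples and MEF and ESC have 1 each.

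Of 21717 probes with values in set 4, 18868 had 1 gene in the platform annotation and 2849 none. A gene was represented by its probe of highest mean, and log2 values were fitted with limma 3.58.1 (lmFit, eBayes with trend) in R 4.3.3, with p-values adjusted by Benjamini-Hochberg over 19537 features. The scripts were tested on simulated data. Counts with 1 sample a side have no test. Counts, lists and figures used Python 3.11.15, numpy 2.4.6, pandas 2.3.3 and matplotlib 3.10.9. Promoters came from RefSeq (GRCm38.p6).

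Genes were named by a rule. Genes ranked by size needed at least 1 of the 4 samples above the receptor level, whichever samples were compared. They were the 10 largest called rises and falls against MEF and the 10 largest differences each way from ESC. The 8 largest each way between the lines were ranked in the same way. Up to 4 called and 2 uncalled members of each list were named whatever their level. All members of the reprogramming factor, adenylyl cyclase, effector, phosphodiesterase and cAMP target lists could be named. Asz1, B2m, Brdt, Dmrtb1, Dnmt3a, Eed, Ezh2, Fgf5, Hoxb13, Hoxc10, Hoxc13, Hoxd13, Jak1, Kit, Laptm5, Lefty2, Mael, Mbd2, Mmp3, Pcgf6, Piwil2, Prdm1, Ptpn11, Smad7, Snai2, Suz12, Sycp3 and Tpm1 were named after their values were seen. The members and lists were chosen with earlier results of these data known. Alternatives were other scalings, a floor at the receptor level, an offset, a filter on dim genes, averaging all probes of a gene, other eBayes settings and leaving out a sample.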

Additional observations from a re-analysis of the deposited data

Results flagged for a closer look

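Srek1, which encodes a splicing factor, was picked out because the SKM-FSK lines lay on opposite sides of MEF. Its 1 probe read 1264 in MEF, 8.75 and 3346 in lines 1 and 2, and 2429 in ESC. Line 2 minus line 1 was 8.58 on the log2 scale, and this difference was not tested. Srek1 was the only feature under 20 in line 1 with the other 3 samples above the receptor level.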

How the results depend on the processing

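No paired analysis was possible because set 4 has 1 MEF sample and 1 ESC sample for the 2 SKM-FSK lines. Of 48 alternative values of the main counts, 33 stayed within 1.5 times and 15 did not. Part of the 33 could hardly move, so this tally is no measure of stability. The sample medians were already 346 to 348, which leaves little for other scalings to change. Leaving out ESC leaves each difference from MEF and the spread between the lines as they were, and the same holds for MEF and ESC exchanged. The floor at the receptor level gave 1138 called against MEF (18.2% of them higher, against 53.9%) and 42 against ESC (7.14% higher, against 49.2%), and 3747, 216, 4102 and 6 features past 2-fold in both lines against MEF, in both lines against ESC, between ESC and MEF and between the lines. Leaving out the dimmest 25% of genes gave 884 called against ESC, 641 for both lines against ESC and 20 between the lines (30.0% higher in line 2, against 53.1%), with fewer genes tested. The offset of 43.7 gave 731, 540 and 11. The adjusted p alone gave 11531 against MEF and 3750 against ESC. With 1 line left out limma could not be fitted, and the untested count ran from 7310 to 7406 against MEF and from 1406 to 1601 against ESC, above the 994 for both lines, which asks for agreement. With the mean of a gene's probes, Isg20 turned to -0.23 against MEF and Pde4b to 1.10 against ESC. The causes of these shifts were not tested. Of 283 named genes, the offset ended 9 calls against MEF and 29 against ESC, and the floor ended 125 and 89. Signal near the receptor level limits the differences from ESC and between the lines.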

Other observations

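In the lists not described above (trophoblast, 2-cell stage, p53 and senescence, endothelial, neural, extraembryonic endoderm, mesoderm and muscle) no more than 2 members each were called against ESC. These lists are short, with 7 to 17 members measured, so small counts do not show closeness to ESC. Where members were called one way, their share was 6.25% to 14.3%. Over all features 3.41% were higher and 3.53% lower. Bmp4, a ligand of the TGF-beta family on the trophoblast list, read 1154 in MEF, 3533 and 5679 in lines 1 and 2, and 1867 in ESC and exceeded ESC by 1.26 (SE 0.23, adjusted p = 1.37e-04, limma), the sole call of 10 measured. Tfap2c, a factor of trophoblast and germ cells, rose from 35.5 in MEF to 12411 and 14544. Of 7 measured genes of the 2-cell stage, 3 were higher than MEF. Khdc3, a maternal effect gene, read 48.9 in MEF, 7369.8 and 5314 in lines 1 and 2, and 14704 in ESC and was lower than ESC, with a difference of -1.23. On the p53 and senescence list, 4 of 17 genes were higher than MEF and 4 lower. Pmaip1 (Noxa), a mediator of cell death, read 474 in MEF, 7384 and 6848 in lines 1 and 2, and 2505 in ESC, above both ESC and MEF in both lines. The cell cycle inhibitor Cdkn2b fell from 8606 in MEF to 392 and 413. On the endothelial list Pecam1, which mouse ESC also express, read 149 in MEF, 2699 and 3325 in lines 1 and 2, and 4170.2 in ESC, and Vwf read 47.9 in MEF, 1026 and 1092 in lines 1 and 2, and 887 in ESC. On the neural list 5 of 16 genes were higher than MEF and 3 lower, and Neurod1, at 140.5 and 139.5 in the lines, 484 in ESC and 26.9 in MEF, was lower than ESC.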
